A study of Rattus norvegicus with 6 samples.

Results

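Neutrophil transcripts and the myeloid receptor gene Trem1 were followed in the livers of 6 rats. The set was 10 genes, chosen with earlier results of these data known: S100a8, S100a9, Csf3r, Cxcr2, Trem1, Camp, Mpo, Elane, Np4 and Ngp. Every non-control probe whose RefSeq accession belongs to one of them was taken, which gave 13 of the 61657 probes on the array and covered 9 of the 10 genes, of 15284 genes that could be named. No probe was matched to Mpo. The rats were male Sprague-Dawley (Crl:CD(SD)) animals, an outbred stock, 9 weeks old, and each received corn oil (5 mL/kg/day). For how long is given in conflicting ways, as 3 days in the design text and 9 weeks in the treatment protocol. A group of 3 rats was killed after CO2/O2 anaesthesia and a group of 3 after isoflurane anaesthesia, with 1 rat per array, and the question was how liver expression relates to the kind of anaesthesia. Each difference is between the kinds of anaesthesia, with no rat free of anaesthesia to compare.

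Neutrophils are short-lived granulocytes that circulate in blood and lodge in the sinusoids of the liver, where they are among the first cells to respond to injury. Their granule proteins are mostly transcribed in bone marrow precursors, with the azurophil enzymes Mpo and Elane made first and the specific granule proteins Camp and Ngp later. Mature cells carry abundant S100a8 and S100a9 mRNA and the receptors Csf3r and Cxcr2. Trem1 is an immunoglobulin-family receptor on neutrophils and monocytes that signals through the adaptor Tyrobp and amplifies inflammatory responses.

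The stretches of promoter sequence below are shown for the 3 genes on which the results turn. They are S100a9, which varied between rats together with S100a8, Trem1, and the alpha defensin Np4, whose probes disagreed. Trem1 signals did not overlap between the groups, but those after isoflurane were not well above background. Each stretch runs from 250 bases before the annotated start to 50 bases after it, from RefSeq on build GRCr8, in the direction of transcription. Capitals mark a match on either strand to GAGGAA, a core of sites for the myeloid factor PU.1, or to TTGCNNAA, a core of C/EBP sites. S100a9 is on the minus strand at chr2:178490573-178490872, Trem1 on the minus strand at chr9:20272420-20272719 and Np4 on the minus strand at chr16:77199593-77199892.
S100a9: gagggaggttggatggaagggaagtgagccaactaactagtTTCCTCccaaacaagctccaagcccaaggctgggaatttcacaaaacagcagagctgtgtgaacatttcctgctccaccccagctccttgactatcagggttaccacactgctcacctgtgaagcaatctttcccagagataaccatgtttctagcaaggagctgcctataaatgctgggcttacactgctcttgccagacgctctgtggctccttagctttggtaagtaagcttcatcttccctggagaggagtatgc
Trem1: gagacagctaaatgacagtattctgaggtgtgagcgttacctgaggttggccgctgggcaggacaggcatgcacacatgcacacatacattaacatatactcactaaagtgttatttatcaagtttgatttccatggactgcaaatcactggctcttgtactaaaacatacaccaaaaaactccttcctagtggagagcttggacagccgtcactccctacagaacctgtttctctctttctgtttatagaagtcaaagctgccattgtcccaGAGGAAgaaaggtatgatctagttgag
Np4: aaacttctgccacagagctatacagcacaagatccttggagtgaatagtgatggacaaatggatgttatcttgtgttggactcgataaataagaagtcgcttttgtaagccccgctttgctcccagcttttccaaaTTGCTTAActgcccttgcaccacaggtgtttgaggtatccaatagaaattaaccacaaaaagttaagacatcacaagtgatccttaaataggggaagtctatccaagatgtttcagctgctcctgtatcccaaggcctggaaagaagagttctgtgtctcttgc
The S100a9 window held 1 PU.1 match, starting 209 bases before the start site (position -209). Trem1 held 1 PU.1 match just downstream of its start, at position +24. The Np4 window held 1 C/EBP match, at position -114. Of the 8 set members with a promoter in the table, 4 held the PU.1 letters and 2 the C/EBP letters, against 27.5% and 10.5% of 27457 promoters of the same length. In none of the 3 windows did matches overlap. A match of letters is not a binding site, and nothing in these arrays measured binding.

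Between 53.4% and 62.3% of probes per array were well above background, a flag set by the scanner software, and no spot was saturated. The arrays' 75th percentiles ranged from 912 to 998 intensity units. The 6 arrays shared 1 slide and 1 scan time. Row 1 of the slide held the 3 CO2/O2 arrays and isoflurane replicate 1, and row 2 held isoflurane replicates 2 and 3, so the row is partly confounded with the group. The 8 hepatocyte markers were all tested, with a median log2 difference of 0.04, and included Alb, serum albumin, and Apoa1, the main HDL apolipoprotein.

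Neutrophil genes were only partly measurable in this tissue. Of the 13 probes, 4 were well above background on all 6 arrays (against 51.4% of all probes), 5 on some arrays and 4 on none (against 33.4%). Only probes with that flag on each of the 3 arrays in 1 group or both were tested. That left S100a8, S100a9, Trem1, Camp and Np4, or 5 genes with 6 probes, while Csf3r, Cxcr2, Elane and Ngp were not tested. A gene that passes through 1 group alone, as Trem1 did, is bound to differ in detection.

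**Figure D1:**
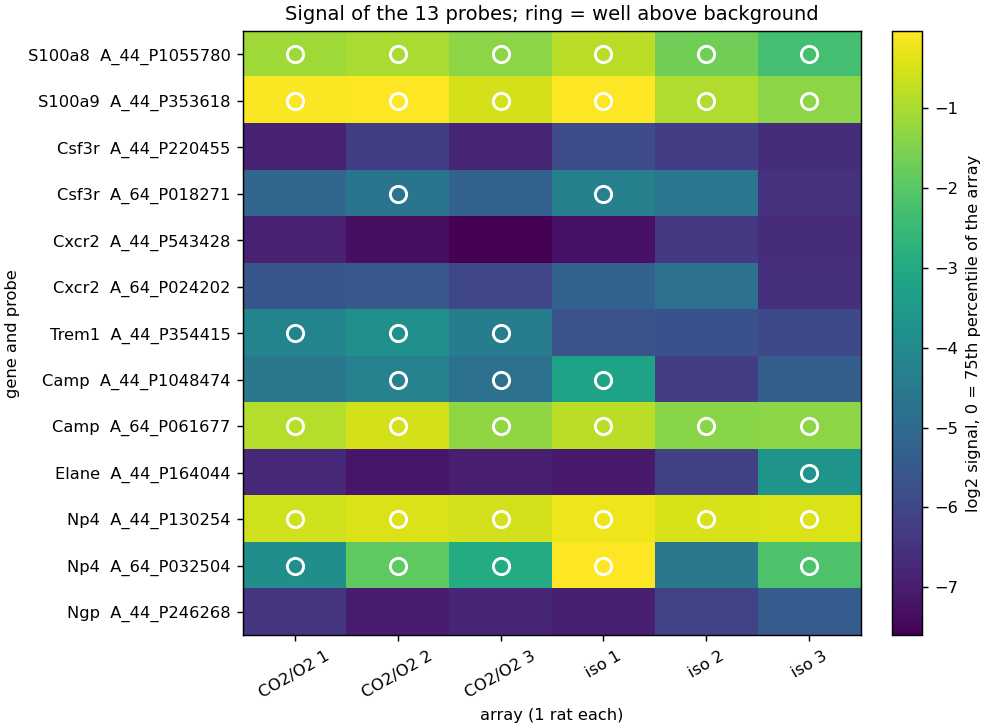
Signal of the 13 probes (rows) on the 6 arrays (columns), coloured by log2 signal with 0 at the 75th percentile of the array; a white ring marks a spot well above background. S100a8, S100a9, 1 Camp probe and 1 Np4 probe are ringed on all arrays, Trem1 on the 3 CO2/O2 arrays alone, and Cxcr2 and Ngp on none.

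No gene of the set passed the test for a difference between the 2 kinds of anaesthesia. In limma, 0 of the 5 tested members reached an adjusted p of 0.05, and 0 of 10609 genes did (percent called, 0%). The adjustment was over all 34637 probes tested, of which 3 probes, none of them representing a named gene, passed. At an unadjusted p under 0.05 there was 1 member, Trem1, against 7.53% of all genes, 4.68% lower and 2.85% higher after isoflurane. By measured signals Trem1 was also the 1 member whose groups did not overlap, against 14.2% of all genes, 7.89% lower and 6.27% higher. The tested members had a median log2 difference of -0.43 (isoflurane minus CO2/O2), with 4 below 0 and 1 above, against a median of -0.0063 and 51.7% below 0 for all genes. That sign rested on the arrays of slide row 2: fitted with a block for the row, the median was 0.18. Without Trem1, which was tested through its CO2/O2 values alone, the 4 members detected on all arrays had a median of -0.36. In RNA of whole liver, fewer neutrophils and less of a transcript per cell cannot be told apart.

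Trem1 was split between the groups by its measured signals. Its processed signals on CO2/O2 replicates 1 to 3 were 54.1, 67.5 and 47.1 intensity units, and on isoflurane replicates 1 to 3 they were 18.1, 17.4 and 15.5. By these signals all 3 isoflurane rats lay below all 3 CO2/O2 rats. The lowest signal well above background on isoflurane replicate 2 was 50.5 units, above the 47.1 of CO2/O2 replicate 3. By bounds, a lack of overlap is therefore not shown. The probe was well above background on 3 of 3 CO2/O2 arrays and on 0 of 3 isoflurane arrays, although a weaker flag, signal significantly above background, was set on all 6. The scanner software's own error of these signals was 7.39 to 10.5 units after CO2/O2 and 6.85 to 12.0 after isoflurane. The isoflurane arrays gave only a bound, from a floor for each array. If these floors hold as upper limits, Trem1 was at least 1.31-fold lower after isoflurane (n = 3 per group). No test was run on that bound, and Trem1 passed the filter through its CO2/O2 values alone. The p values of limma (adjusted p = 0.214, unadjusted p = 6.18e-05) belong to the fitted difference of the measured signals, given below. The bound sets the mean of the CO2/O2 rats against the floor of each isoflurane array. That floor is Trem1's measured signal or the lowest signal flagged well above background there, whichever was higher. Such a floor is not a strict limit for spots without the flag. On CO2/O2 replicate 1 the dimmer Camp probe lacked the flag at 41.5 units, above that array's lowest flagged signal of 39.3.

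The measured group means of Trem1 were -4.14 ± 0.31 (SD, n = 3) after CO2/O2 and -5.77 ± 0.14 (SD, n = 3) after isoflurane, in log2 units with 0 at the 75th percentile of the array. The fit's difference between them, -1.64, rests on isoflurane values that were not well above background and on a gene that passed the filter through the CO2/O2 group, so it does not give the size of the change. The same holds for isoflurane replicate 1 minus the mean of the CO2/O2 rats within slide row 1, which was -1.53. With normexp background correction, which adds 50 units to each spot, the fitted difference was -0.38 (limma adjusted p = 0.508, with a range of 0.106 to 0.781 over all alternatives).

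Background differed along the slide. In the CO2/O2 rats the lowest signal well above background was 39.3, 28.0 and 24.1 units. In the isoflurane rats it was 28.8, 50.5 and 44.3 units, highest in the pair on slide row 2. In all, 104 probes were well above background on every CO2/O2 array and on no isoflurane array, or 0.3% of those tested, while 3 had the opposite pattern (0.00866%). On isoflurane replicate 1, whose lowest such signal was 28.8, Trem1 was at 18.1. The part of these background levels in the result for Trem1 was not tested.

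**Figure D2:**
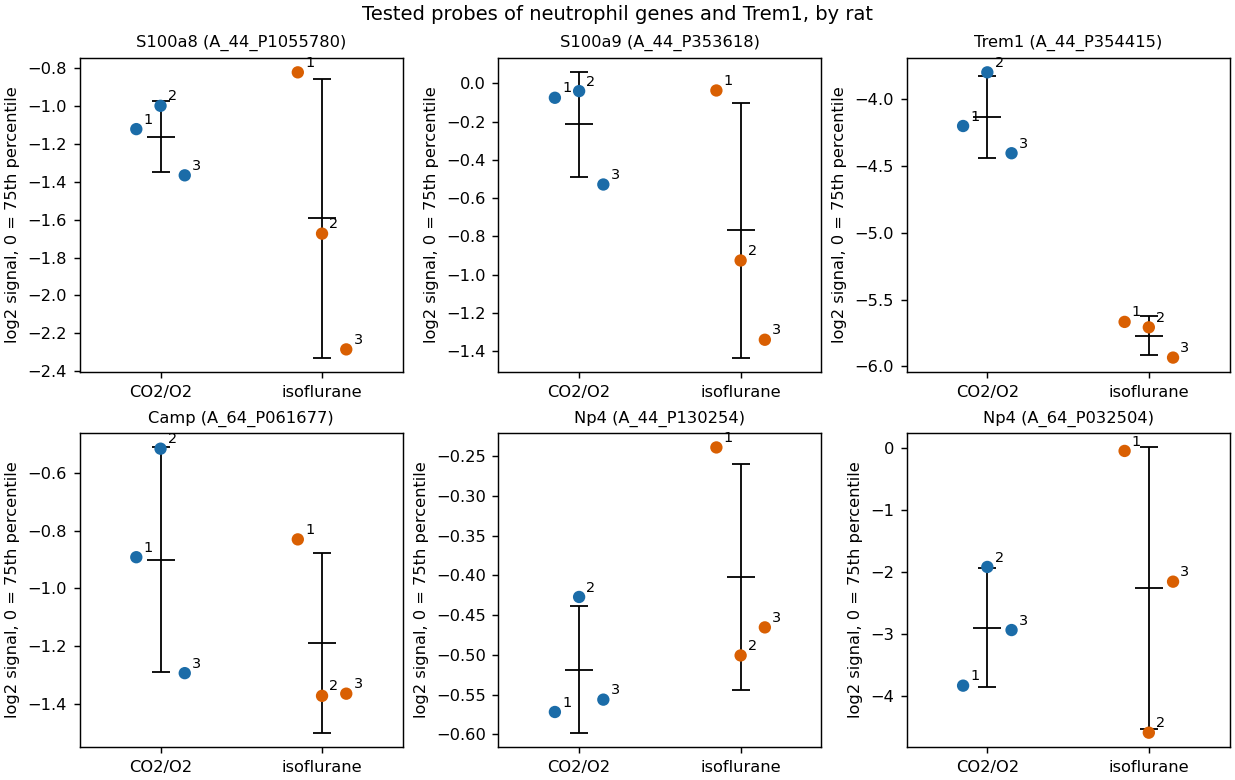
Log2 signal of the 6 tested probes in each rat (points, with replicate numbers), with 0 at the 75th percentile of the array; bars show the group mean and SD, n = 3. The measured signals of Trem1 separate the groups, though those after isoflurane were not well above background. The other 5 probes overlap and isoflurane replicate 1 is the highest isoflurane rat in each of them.

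S100a8 and S100a9 encode the calcium-binding subunits of calprotectin, an abundant protein of neutrophil cytosol. S100a8 signals were 457, 471 and 388 units on CO2/O2 replicates 1 to 3 and 520, 285 and 194 on isoflurane replicates 1 to 3. S100a9 signals were 944, 915 and 692 in the CO2/O2 rats and 896, 478 and 374 in the isoflurane rats. In both genes isoflurane replicates 2 and 3 were the lowest rats, and isoflurane replicate 1 was among the highest, so that the groups overlapped. The log2 difference was -0.43 for S100a8 (SE 0.36, limma adjusted p = 0.807) and -0.55 for S100a9 (SE 0.34, limma adjusted p = 0.739). The 95% confidence intervals, -1.30 to 0.44 and -1.38 to 0.27, take in a fall of more than 2-fold as well as a rise.

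Within slide row 1 both calprotectin genes were on the other side of 0. Isoflurane replicate 1 lay above the mean of the CO2/O2 rats by 0.34 log2 units for S100a8 and 0.18 for S100a9. Without isoflurane replicate 1 the differences were -0.82 and -0.92, each over 1.5 times the value from all rats. Without isoflurane replicate 3 they were -0.09 and -0.27.

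Camp encodes cathelicidin, an antimicrobial peptide precursor of specific granules, and its 2 probes gave different levels of detection. The brighter probe had 536, 657 and 408 units in the CO2/O2 rats and 517, 351 and 368 in the isoflurane rats. The highest rat was CO2/O2 replicate 2, and the groups overlapped, with a log2 difference of -0.29 (SE 0.24, limma adjusted p = 0.809). The dimmer probe, which was not tested, had 41.5, 49.6 and 36.0 units in the CO2/O2 rats and 98.4, 12.0 and 24.0 in the isoflurane rats. It was well above background in CO2/O2 replicates 2 and 3 and in isoflurane replicate 1, the highest rat.

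Np4 encodes an alpha defensin, a small cationic peptide of granules, in a family of similar sequence whose members may share signal on a probe. The brighter of its probes was nearly flat, at 669, 699 and 679 units in the CO2/O2 rats and 779, 641 and 686 in the isoflurane rats. Its log2 difference was 0.12 (SE 0.10, limma adjusted p = 0.821). The other probe, listed under the same accession, had 69.6, 248 and 130 units in the CO2/O2 rats and 887, 37.6 and 212 in the isoflurane rats. Its difference was 0.63 with an SE of 1.14 (limma adjusted p = 0.923), and it was not well above background on isoflurane replicate 2. With this probe isoflurane replicate 1 minus the mean of the CO2/O2 rats was 2.85. After scaling by the arrays' 75th percentiles, its range over the rats was at least 17.3-fold, with isoflurane replicate 2 set to the lowest signal well above background on its array. The brighter probe ranged over 1.26-fold, and both were highest in isoflurane replicate 1.

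Other defensin probes had the same highest rats as the dimmer Np4 probe. Defa5, another alpha defensin, had 58.8, 282 and 149 units in the CO2/O2 rats and 1079, 47.3 and 114 in the isoflurane rats, and was likewise not well above background on isoflurane replicate 2. RatNP-3b, a neutrophil defensin gene, had 77.3, 196 and 99.3 units in the CO2/O2 rats and 688, 63.9 and 73.7 in the isoflurane rats. In all of them isoflurane replicate 1 was the highest and CO2/O2 replicate 2 the next. How much of this is 1 transcript seen by several probes was not tested, and RatNP-3b was singled out after its values were seen. Of 12 listed alpha defensins 3 were tested, all above 0 with a median of 0.45, but without isoflurane replicate 1 the median was -0.66.

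**Figure D3:**
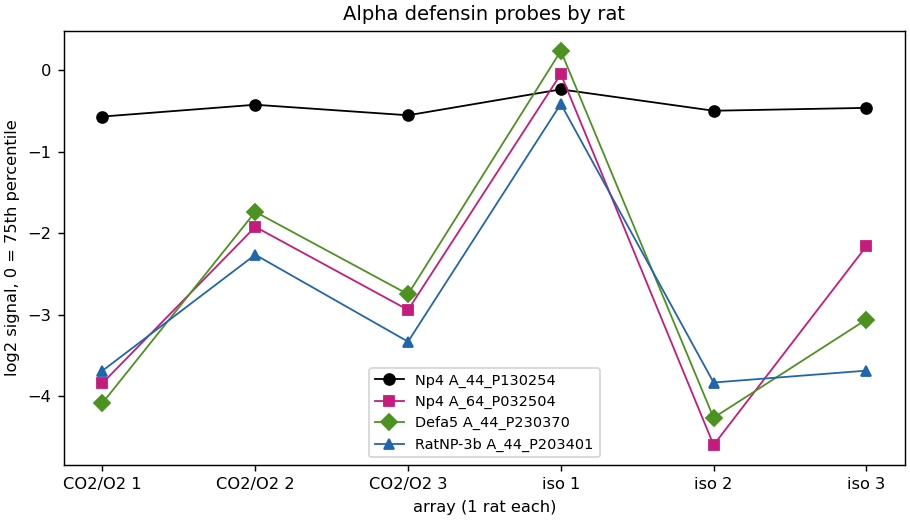
Log2 signal, with 0 at the 75th percentile of the array, of both Np4 probes, Defa5 and RatNP-3b on the 6 arrays, 1 rat each. Lines join the values of a probe and carry no order; on isoflurane replicate 2 the dimmer Np4 probe and Defa5 are not well above background. The brighter Np4 probe (black) spans 1.26-fold, while the other Np4 probe spans at least 17.3-fold and peaks in isoflurane replicate 1 together with Defa5 and RatNP-3b.

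Csf3r, the receptor for the granulocyte growth factor G-CSF, was at the edge of detection. Its better probe had 28.9, 36.8 and 26.3 units in the CO2/O2 rats and 46.1, 36.3 and 10.2 in the isoflurane rats, and was well above background in CO2/O2 replicate 2 and isoflurane replicate 1. Its other probe ranged from 8.50 to 16.0 units and was well above background on 0 arrays. Cxcr2, a receptor for neutrophil-attracting chemokines, was well above background on no array at either probe, with signals of 9.91 to 33.2 and 5.14 to 11.2 units. Apart from those 2 Csf3r values, the values of both receptors are bounds on this array and do not show that the mRNA was missing.

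Elane, the neutrophil elastase of azurophil granules, was seen in 1 rat. Its signals were 9.24, 6.67 and 7.92 units in the CO2/O2 rats and 6.89, 12.8 and 72.9 in the isoflurane rats, with isoflurane replicate 3 the 1 array well above background. That rat had the lowest S100a8 and S100a9 signals of the 6. Ngp, a protein of specific granules, was not well above background in any rat. Its signals were 11.2, 7.40 and 8.95 units in the CO2/O2 rats and 7.51, 13.7 and 22.4 in the isoflurane rats. The weaker flag, signal significantly above background, was set on 3 CO2/O2 arrays and 1 isoflurane array. No order of rats is read from these values, since none is well above background.

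Co-variation across rats was tight for calprotectin. Over the 6 rats the scaled log2 signals of S100a8 and S100a9 had Pearson's r of 0.978 (exact permutation p = 0.00139, adjusted over 6 pairs of members p = 0.00833). Spearman's rho was 1, the same order of rats in both genes (exact permutation p = 0.00278, adjusted p = 0.0167). Both tests were two-sided over all 720 pairings. Without the 2 rats farthest from the median of S100a8, isoflurane replicates 2 and 3, r was 0.873 over 4 rats. After each group was centred on its own mean r was 0.981, so the relation was also seen within the groups. These rats shared a slide, and the 2 that were left out were those of slide row 2, so that the row moved with both genes.

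Camp followed the same order less closely. Its brighter probe had r of 0.855 with S100a9 (rho 0.886) and 0.789 with S100a8 (rho 0.886). By exact permutation over 6 rats these had p = 0.0250 and 0.0472 for r, and 0.0750 and 0.0944 after adjustment over the 6 pairs; for rho both had p = 0.0333, and 0.0667 adjusted. Neither passed after adjustment. Without isoflurane replicates 2 and 3 r was 0.876 and 0.736, and after centring each group 0.815 and 0.737. The brighter Np4 probe had r of 0.286 with S100a9, 0.378 with S100a8 and 0.406 with Camp (adjusted exact permutation p = 0.615, 0.537 and 0.537), and rho of 0.429 with each (adjusted exact permutation p = 0.419). Without the 2 farthest rats these r were 0.520, 0.869 and 0.449. After each group was centred on its own mean they were 0.817, 0.802 and 0.847, each higher than over all rats.

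Trem1, by its measured signals, did not follow that order across the groups. Among the CO2/O2 rats its signals, scaled by array, ranked the rats as S100a8 and S100a9 did. No order is read among the isoflurane rats. Their signals of 18.1, 17.4 and 15.5 units were not well above background and had scanner errors of 6.85 to 12.0 units. In isoflurane replicate 1, which had the highest S100a8 signal of all rats, Trem1 was at 18.1 units and not well above background, as in the other isoflurane rats. No correlation is given for Trem1, since its values on 3 of the 6 arrays lack that flag.

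**Figure D4:**
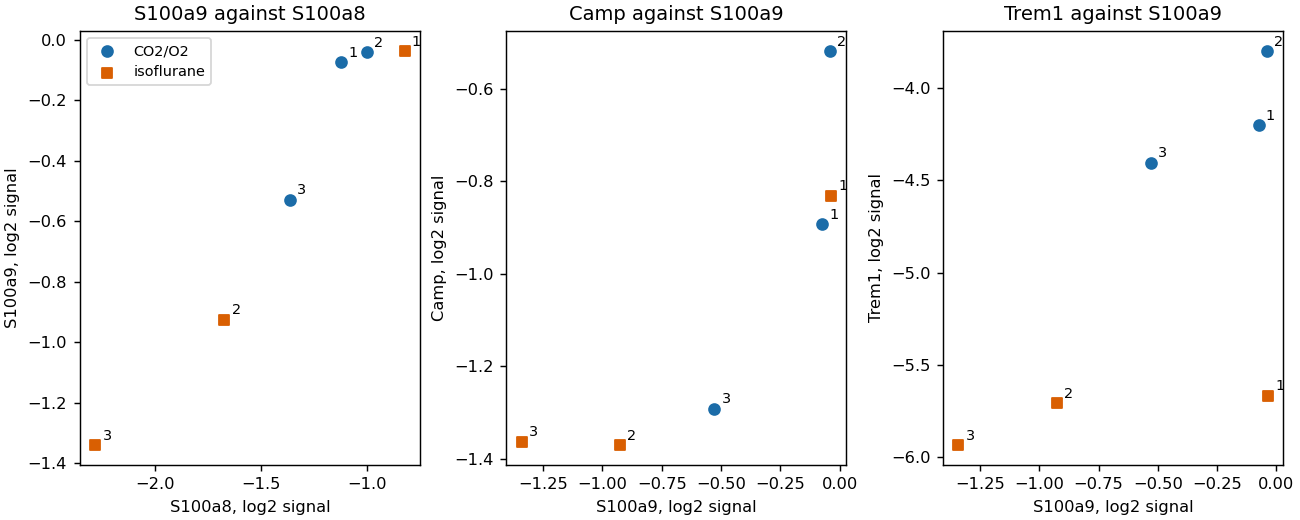
Log2 signals, with 0 at the 75th percentile of the array, of S100a9 against S100a8, Camp against S100a9 and Trem1 against S100a9, with 1 point per rat and its replicate number. S100a8 and S100a9 rank the 6 rats alike (rho 1), whereas Trem1 is low in all isoflurane rats, also in replicate 1, where S100a9 is high.

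The spread between rats of the same group was wide for calprotectin. The pooled within-group SD was 0.54 log2 units for S100a8 and 0.51 for S100a9, larger than in 94.9% and 94.3% of tested genes, whose median was 0.15. Camp had 0.35 and Trem1 0.24, while the brighter Np4 probe had 0.12, below that median. Among 10021 genes well above background on all 6 arrays and ranked by Pearson's r with S100a9 over the 6 rats, the 5 most alike were Cxcl13, a B cell chemokine (r = 0.999), Sp110, a nuclear body protein (0.992), Rab11b, a small GTPase of vesicle recycling (0.992), the transcription factor Etv6 (0.991) and Loxl4, a lysyl oxidase (0.989). S100a8 ranked 15 by this measure, Camp 329 and Np4 3406. These r are descriptions over 6 points that share a slide.

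Other genes listed for the neutrophil showed no called change. Which cells of the liver gave these signals was not measured. Of 5 tested genes of neutrophil cytosol and nucleus 4 had negative and 1 positive differences, with a median of -0.28, S100a8 and S100a9 included. Of 6 tested surface genes, Trem1 among them, 5 were below and 1 above 0 (median -0.39). Of these Trem1, Trem3 and Il1r2 were tested through their CO2/O2 values. After isoflurane Trem1 had the flag on 0 of 3 arrays, and Trem3 and Il1r2 on 1 of 3 each. The 3 detected on all arrays, Fpr1, Fcgr3a (-0.23) and Ceacam1, had a median of -0.0052, the value of Ceacam1. With normexp the median of the 6 was -0.08. Fpr1, a formyl peptide receptor, had a difference of 0.05 by its brighter probe, while its other probe was well above background on no array. Cxcr1 was well above background on no array. Of 4 tested azurophil granule genes 3 were below 0 (median -0.04), and the median was 0.05 without CO2/O2 replicate 3, 0.02 without isoflurane replicate 1 and -0.20 without CO2/O2 replicate 1. Prtn3, proteinase 3, had -0.0065 by its brighter probe, while its other probe was well above background on no array. Cd63, a granule membrane tetraspanin, had -0.07. Specific and gelatinase granule genes had a median of -0.21 over 4 tested genes, with Lcn2, which hepatocytes also make, at -0.74 (SE 0.33, limma adjusted p = 0.667). Of the 4, Chi3l1 was tested through its CO2/O2 values and had the flag on 1 of 3 isoflurane arrays. The 3 detected on all arrays had a median of -0.29. Over the 4 the median was 0.08 without isoflurane replicate 3, 0.02 without CO2/O2 replicate 2 and -0.48 without isoflurane replicate 1. Ltf, Mmp9, Olfm4 and Ngp of that list were well above background on no array. In limma 0 genes of these lists passed the threshold (percent called, 0%, over all genes), and a block for the slide row gave medians of 0.05 for the cytosol and nucleus list, -0.07 for the surface list, -0.25 for the azurophil list and 0.33 for the specific granule list.

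Genes of TREM1 signalling and of the TREM family were mostly lower in the isoflurane rats, without passing the test. Of 11 tested genes, Trem1 itself and other receptors of the family included, 10 had negative differences, with a median of -0.28, and 0 passed. In 4 of the 11 the groups did not overlap with isoflurane lower, against 7.89% of all genes. Trem1 is 1 of these 4, and since it was tested through its CO2/O2 values alone, its lack of overlap adds no support. The same pattern was seen in 5 of 9 tested Kupffer cell markers, 2 of 5 monocyte, 2 of 8 lymphocyte and 0 of 8 hepatocyte markers. It was therefore not particular to the TREM genes. Tyrobp, the adaptor through which Trem1 signals, also in Kupffer and NK cells, had 26808, 27422 and 24541 units in the CO2/O2 rats and 19824, 19793 and 17925 in the isoflurane rats. All isoflurane rats were below all CO2/O2 rats, with a difference of -0.37 (SE 0.11, limma adjusted p = 0.574). The others without overlap, named after their values were seen, were Trem1, Trem2 and Bcl10. Of those without overlap, Tyrobp, Trem2 and Bcl10 were well above background on all arrays and Trem1 was not. The 8 of these genes detected on all arrays were all below 0, with a median of -0.28. Under a block for the slide row 10 of the 11 differences were below 0, with a median of -0.14.

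Trem3, a receptor of the same family, was well above background on all 3 CO2/O2 arrays and, after isoflurane, on 1 of 3. Its signals were 65.0, 64.7 and 52.1 units in the CO2/O2 rats and 59.9, 25.7 and 21.2 in the isoflurane rats, so that isoflurane replicate 1 lay within the range of the CO2/O2 rats. Its values on isoflurane replicates 2 and 3 lie under the lowest signals well above background there and are bounds, so no size is given for its difference (limma adjusted p = 0.686). It was chosen for mention after its values were seen.

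Genes for neutrophil recruitment showed no called change. Of 6 tested chemokine, growth factor and adhesion genes 3 were below and 3 above 0. Cxcl1, a neutrophil-attracting chemokine, had a difference of 0.0022 (SE 0.24) and Csf3, which encodes G-CSF, 0.05 (SE 0.27). Cxcl2, Sele and Selp were well above background on no array. Itgb2, the common chain of leukocyte integrins, had 1824, 1824 and 1686 units in the CO2/O2 rats and 1225, 1322 and 953 in the isoflurane rats, with no overlap (difference -0.54, SE 0.15, limma adjusted p = 0.574), and was named after its values were seen.

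**Figure D5:**
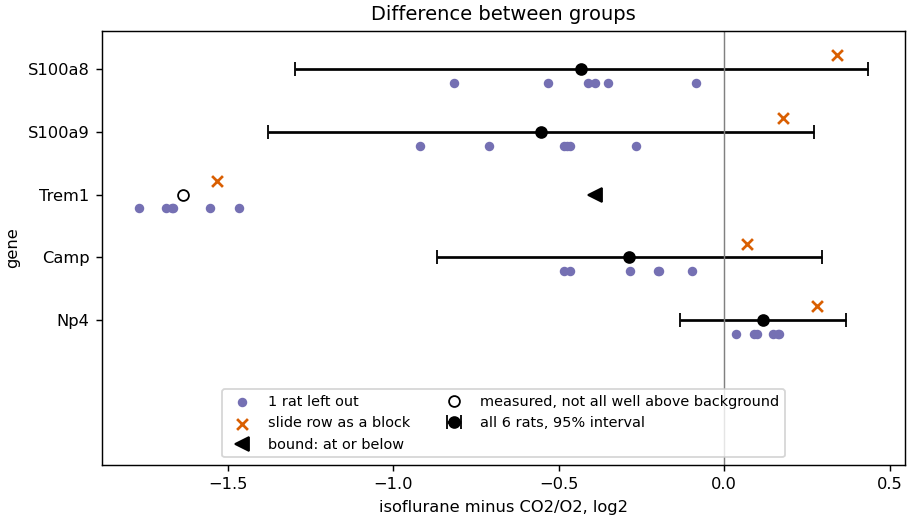
Difference between the groups, isoflurane minus CO2/O2 in log2 units, for the 5 tested genes. Black points and bars give limma's estimate and 95% confidence interval over all 6 rats. For Trem1 there is no interval, only an open point for the measured value and an arrowhead for the bound. That bound is at least 1.31-fold lower if the floors of the isoflurane arrays hold. Purple points give the estimate with 1 rat left out and orange crosses that under a block for slide row. The 4 intervals shown all cross 0, and the crosses of S100a8, S100a9 and Camp lie above 0.

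Markers of other blood and myeloid cells were also mostly lower in the isoflurane rats, without passing the test. Each list is given as its mean over tested genes, relative to the mean of all arrays. Kupffer cell markers, 9 of 10 tested and 9 of 9 lower, lay between -0.05 and 0.35 in the CO2/O2 rats and between -0.21 and -0.10 in the isoflurane rats, with Clec4f at -0.50 and Vsig4 at -0.62. Monocyte markers, 5 of 8 tested, lay between -0.08 and 0.20 and between -0.27 and 0.03, and Cx3cr1 (0.31) and Cd14 (-0.11) differed in sign. Lymphocyte markers, 8 of 10 tested, lay between -0.02 and 0.31 and between -0.55 and 0.03, with Cd3g at -0.32 and Cd8a at -0.54. Erythroid markers, 5 of 7 tested, lay between 0.01 and 0.39 and between -0.64 and 0.27, with Hbb at -0.45 and Alas2 at -0.36. Platelet markers, 3 of 6 tested, lay between -0.20 and 0.35 and between -0.19 and 0.05, and eosinophil and mast cell markers, 4 of 8 tested, between -0.20 and 0.39 and between -0.22 and -0.04. Of these Pf4 was at -0.05, Prg2 at -0.18 and Siglec5 at -0.42, while Ppbp was well above background on all 3 CO2/O2 arrays and on 0 isoflurane arrays and has no size here. The platelet means include Ppbp and therefore give no size for a difference between the groups. Cpa3 in the eosinophil and mast cell means and Epb42 in the erythroid means had the flag on 2 of 3 isoflurane arrays.

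In the same units the 5 tested set members lay between 0.04 and 0.51 in the CO2/O2 rats and between -0.61 and 0.15 in the isoflurane rats. That mean includes Trem1, which was tested through its CO2/O2 values alone and was not well above background on any isoflurane array. It therefore gives no size for a difference between the groups. The markers Vcan, Epx, Ccr3, Ms4a2 and Gp1ba were well above background on no array. Of all these marker lists 0 genes passed in limma. Isoflurane replicate 3 was the lowest rat in the erythroid, lymphocyte, monocyte, Kupffer cell and hepatocyte lists, and for S100a8 and S100a9, but not in the platelet and eosinophil and mast cell lists. The part of other blood cells in the differences of the neutrophil genes was not tested.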

How the data were processed

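Liver RNA of 6 rats was labelled with Cy3 on 1-colour arrays, 1 rat per array. Agilent Feature Extraction 10.7 is the software named in the submitters' processing notes. Per the file headers, the deposited intensity values had been corrected for background within each array, and arrays had not been scaled to each other. The authors' deposited table of values holds a ratio per probe. In each column it was the processed signal divided by 1 number close to the array's 75th percentile. The rule behind that number is unknown here. Column medians in the CO2/O2 rats were 0.0864, 0.0881 and 0.0868, and those in the isoflurane rats were 0.0917, 0.0900 and 0.0905.

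Log2 processed intensity was reduced by the array's 75th percentile over non-control probes, leaving out 177 spots that the scanner software marked as outliers. Groups were compared on 34637 probes with lmFit and eBayes of limma 3.58.1 (R 4.3.3), with Benjamini-Hochberg adjustment over all of them and a threshold of 0.05; the fit was tested on simulated data. A gene was represented by its brightest tested probe. The number of arrays limits the precision. Probes were named through RefSeq accessions of GRCr8, used for names; 27460 of 61657 probes matched 1 gene and 34197 none. The array headers name build rn4, so no probe positions are given. Files were read and plotted in Python 3.11.15 (numpy 2.4.6, pandas 2.3.3). The set and all lists were chosen with earlier results of these data known. Beside the set, the first 2 tested genes of each list were named, with the 5 genes most like S100a9. The alternatives were other background corrections, scalings, filters, variance priors and probe rules, the value table, blocks for replicate number and slide row, and each rat left out. Blocks for slide and scan time were not possible with 1 of each.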

Additional observations from a re-analysis of the deposited data

How the results depend on the processing

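The count of set members past the threshold, 0, was 1 at an unadjusted p under 0.05 and 0 in each of the other alternatives, also with any rat left out (0 to 0). The median difference of the members, -0.43, was 0.18 under a block for the slide row and -0.82 to -0.20 with a rat left out, lowest without isoflurane replicate 1. Under that block the isoflurane arm rests on replicate 1, a lone sample assumed to vary like the others, and S100a8 was 0.34, S100a9 0.18 and Camp 0.070, the sign turned in each, while Trem1 was -1.53. The fitted value of Trem1, which gives no size, was below 0 in 17 of 17 alternatives, from -1.77 to -0.38, with limma adjusted p between 0.106 and 0.781. It had no value under the filter asking for all 6 arrays. Np4 was 0.63 by its dimmer probe, an alternative added after the data were seen. The correlation of S100a8 with S100a9 ran from 0.957 to 0.987 with a rat left out and from 0.978 to 0.996 otherwise. Median centring moved the median of all genes from -0.0063 to -0.07 and turned the sign of no member. Same-numbered rats of the groups had deviations from their group means that correlated at 0.114, 0.021 and 0.060. CO2/O2 replicate 2 correlated more with isoflurane replicate 3 (0.037). With 3 rats per group these values cannot decide whether the number pairs the rats. With the replicate block 0 members passed, the median difference was -0.43 and Trem1 had a limma adjusted p of 0.444. The causes of the changes were not tested. Signals near the lowest level well above background, 24.1 to 50.5 units, limit what can be said of Trem1, Csf3r, Cxcr2, Elane and Ngp.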

Other observations

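Several probes of neutrophil genes were well above background in a single rat. Elane was at 72.9 units in isoflurane replicate 3 and at most 12.8 elsewhere. Mmp8, the collagenase of specific granules, was at 70.5 units in CO2/O2 replicate 1 and at most 12.6 elsewhere. Defa8 was at 78.2 units in CO2/O2 replicate 2 and at most 13.4 elsewhere. A probe of Cxcl6, a neutrophil-attracting chemokine, was at 315 units in isoflurane replicate 2 and at most 9.77 elsewhere, while its other probe was at most 11.4 in every rat. A second probe of Csf3 was at 267 units in isoflurane replicate 3 and at most 13.7 elsewhere, while its first probe was well above background in every rat, at 153 to 275 units. The choice of these genes was made with their values in view. Each probe has 1 spot per array, and no test was run on single rats.

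Cybb, the large subunit of the phagocyte oxidase, had 278, 224 and 250 units in the CO2/O2 rats and 572, 197 and 192 in the isoflurane rats. Its highest rat was isoflurane replicate 1, the rat with the highest defensin signals. It too was chosen with its values in view.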
